A study of Drosophila melanogaster with 2 samples.

Results

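The peaks described here are the 300 strongest of the 3203 peaks in the list of reproducible peaks made from both replicates of a Slp2 ChIP-seq experiment. They were chosen by the authors' signal value alone, as the 300 rows of the reproducible peak list with the highest value, and were set beside the 2903 remaining rows. Chromatin immunoprecipitation followed by sequencing (ChIP-seq) recovers the DNA bound by a protein in fixed chromatin. Here the protein was Slp2 with GFP fused to its C-terminus, recovered with an antibody to GFP from whole Drosophila melanogaster embryos of strain 9T-GFP, collected at 0 to 24 h and of mixed sex. There was 1 group with 2 libraries, biological replicates 2 and 3, and no second genotype, stage or treatment. A control data set is named by the labels and was not analysed here. The line is a transgene, so slp2 sequence may be present beyond the endogenous gene, and how much of it the insertion carries is not given in the sources used here. Whole embryos over the first day mix all tissues, and a strong peak in few cells cannot be told apart from a weaker one in many.

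Slp2 (sloppy paired 2) is a forkhead-domain transcription factor that acts with its neighbour Slp1 in segmentation of the embryo, first among the pair-rule genes and then among the segment polarity genes. Forkhead proteins contact DNA through a winged helix and prefer sequences around a TGTTTAC or TATTTAC core. Other proteins bind fly promoters through short sequences of their own, among them DREF, BEAF-32, M1BP and the GAGA factor Trl.

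What these peaks looked like in sequence is shown first, with 4 sets taken from the Release 6 assembly (dm6). Capitals mark the match named, and each sequence is printed 5′ to 3′ on the strand that carries the match. The forkhead consensus (TGTTTAC or TATTTAC, either strand) lay within 100 bp of the summit in 53 of the 300 peaks. Of its strongest holders, 5 were the following, shown because forkhead recognition is the known property of the protein.
Ugalt, rank 3, chrX:2703883-2703942, minus strand: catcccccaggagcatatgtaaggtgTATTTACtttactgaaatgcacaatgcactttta
Lk6, rank 7, chr3R:11761069-11761128, minus strand: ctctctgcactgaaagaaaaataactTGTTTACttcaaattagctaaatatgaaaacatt
Art3, rank 11, chr3R:15229481-15229540, plus strand: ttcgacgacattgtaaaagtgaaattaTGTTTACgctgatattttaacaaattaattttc
CG9663, rank 23, chr2L:3302154-3302213, minus strand: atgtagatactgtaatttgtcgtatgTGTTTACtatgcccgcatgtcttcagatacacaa
mub, rank 46, chr3L:21880429-21880488, plus strand: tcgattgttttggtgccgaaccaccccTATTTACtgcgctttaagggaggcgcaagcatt

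The 8-letter word CACAGTGG, named word A below, is shown because it had the widest difference in share, outside words made almost wholly of A and T, between the 300 peaks and the remaining ones.
larp, rank 20, chr3R:28326660-28326719, minus strand: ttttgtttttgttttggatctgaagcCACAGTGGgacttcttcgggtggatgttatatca
Rtnl1, rank 21, chr2L:4997548-4997607, plus strand: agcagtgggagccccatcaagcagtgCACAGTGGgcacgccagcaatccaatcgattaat
tara, rank 25, chr3R:16222555-16222614, minus strand: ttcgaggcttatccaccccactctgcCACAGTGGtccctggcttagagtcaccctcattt
CG42507, rank 50, chr3L:14759372-14759431, plus strand: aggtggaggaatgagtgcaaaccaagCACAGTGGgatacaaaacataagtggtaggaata
NFAT, rank 52, chrX:13640408-13640467, plus strand: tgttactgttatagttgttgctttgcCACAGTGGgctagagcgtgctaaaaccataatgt

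The word AACCCCCT, named word B, is shown because few of the remaining peaks held it.
CHMP2B, rank 17, chr3L:5139520-5139579, plus strand: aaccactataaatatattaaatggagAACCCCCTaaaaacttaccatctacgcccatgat
CG9663, rank 23, chr2L:3302196-3302255, plus strand: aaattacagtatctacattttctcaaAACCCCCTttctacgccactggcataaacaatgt
Shc, rank 26, chr3L:9426904-9426963, plus strand: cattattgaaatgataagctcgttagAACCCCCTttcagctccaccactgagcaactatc
CG4496, rank 99, chr2L:7188675-7188734, plus strand: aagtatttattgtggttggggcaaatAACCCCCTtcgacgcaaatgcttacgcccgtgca

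The DREF site TATCGATA is shown because the summit windows of the strongest promoter peaks held it less often than those of the remaining ones.
Shc, rank 26, chr3L:9426934-9426993, plus strand: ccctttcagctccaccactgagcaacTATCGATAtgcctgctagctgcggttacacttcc
GCS2beta, rank 191, chr2L:17484291-17484320, plus strand: atagagacaacTATCGATAgcaacgggcag
CG11151, rank 195, chrX:13739438-13739497, plus strand: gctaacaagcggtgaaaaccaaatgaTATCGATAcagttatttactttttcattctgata

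Whole summits of the strongest peak (CG14100), of the second (in an intron of ush) and of the peak nearest to slp2 itself are given for comparison. Capitals would mark the forkhead consensus, the DREF site, the M1BP site GGTCACAC and words A and B, on either strand.
CG14100, rank 1, chr3L:19590525-19590714, plus strand: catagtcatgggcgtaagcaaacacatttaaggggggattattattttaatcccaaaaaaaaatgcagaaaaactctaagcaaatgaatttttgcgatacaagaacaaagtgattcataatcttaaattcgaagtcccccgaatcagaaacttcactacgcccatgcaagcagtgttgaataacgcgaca
ush intron, rank 2, chr2L:480981-481180, plus strand: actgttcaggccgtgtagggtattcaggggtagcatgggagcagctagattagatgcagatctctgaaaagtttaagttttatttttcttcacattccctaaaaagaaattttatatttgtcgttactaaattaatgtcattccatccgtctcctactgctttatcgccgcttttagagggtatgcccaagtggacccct
slp2, rank 47, chr2L:3832426-3832625, plus strand: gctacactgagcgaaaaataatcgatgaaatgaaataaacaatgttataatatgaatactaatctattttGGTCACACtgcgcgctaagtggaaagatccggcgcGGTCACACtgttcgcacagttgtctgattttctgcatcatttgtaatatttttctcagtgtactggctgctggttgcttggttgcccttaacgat
The stretches at CG14100 and in ush held none of these 5 sequences. The stretch upstream of slp2 held 2 copies of the M1BP site and no forkhead consensus.

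The signal of the 300 peaks ran between 239.272 and 1453.32, with a median of 322.656, on the caller's scale, for which no unit is stated. These peaks made up 9.37% of the list and held 26.9% of its summed signal. Signal was concentrated at the top, with 7 peaks at or above 1000, 47 at or above 500 and 124 under 300. The 3 last peaks inside the threshold lay at Rgl (239.559), Gmppa (239.291) and Leash (239.272). The 3 first outside it lay at CG17260 (239.2), CG1943 (239.105) and Smr (238.853), so no gap in signal separates the 300 from the next rows. All 300 had the highest -log10 q-value in the list, which 2152 of the 2903 remaining peaks (74.1%) also had. These values are what the choice used, or come from the same calling, and are given as a description.

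The strongest promoter peak was at CG14100 (chr3L:19590439-19590811), with a signal of 620.388 in replicate 2 and 838.672 in replicate 3. At Ugalt, which encodes a UDP-galactose transporter, the values were 602.286 in replicate 2 and 710.524 in replicate 3. At Chro, which encodes the interband chromatin protein Chromator, they were 501.484 in replicate 2 and 571.356 in replicate 3. These 3 were somewhat stronger in replicate 3. The promoter peak at px, a wing vein patterning gene, ranked between those at Ugalt and Chro. It was stronger in replicate 2, with 629.582 against 573.788 in replicate 3. Further promoter peaks among the 10 strongest of that class were at ph-p, which encodes a Polycomb complex subunit, and at CG1888. The others were at mRpL41 (mitochondrial ribosome), Art3 (an arginine methyltransferase), PNPase (mitochondrial RNA processing) and Pal1 (peptide amidation).

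Among intron peaks, the one in ush was strongest in replicate 2 of the whole set, at 725.513, and had 631.705 in replicate 3. The nearest start site belonged to cbt, which encodes a zinc finger transcription factor, 1393 bp away. Next came an intron of CG11050, at 584.935 in replicate 2 and 446.736 in replicate 3. An intron of Lk6, a kinase of the translation factor eIF4E, had 521.704 in replicate 2 and 502.805 in replicate 3. The 3 were 1.15-fold, 1.31-fold and 1.04-fold higher in replicate 2, in that order, and their starts were 1393, 1037 and 960 bp away. Intron peaks of lower signal lay in CG32772, CG9663, Tlk, mub and NFAT, in the overlapping genes HmgD and HmgZ, and in Trl, the gene of the GAGA factor itself, where the nearest start was that of CG42507.

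Intergenic peaks were led by CG13323, 11938 bp from its start, with 413.34 in replicate 2 and 356.271 in replicate 3. The peak 3151 bp upstream of tara, which encodes a nuclear regulator of chromatin and cell cycle genes, had 301.202 in replicate 2 and 374.227 in replicate 3. The peak 3375 bp past the start of CycB (cyclin B), outside the gene, had 297.911 in replicate 2 and 280.921 in replicate 3. The remaining intergenic peaks of the 10 strongest were nearest to slp2, eEF1gamma, CG43245, CG31668, sp3, CG43131 and CG17896. That nearest to CG43245 was 32040 bp from it, the greatest distance among the 300.

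The factor's own locus held 1 of the 300 peaks. It lay 4314 bp upstream of slp2 at rank 47, with a signal of 511.667 from both replicates together, 242.676 in replicate 2 and 267.057 in replicate 3. The other 3 peaks nearest to slp2 ranked 1848, 2357 and 2708 of the 3203, with signals of 93.2, 79.6 and 72.7. The 1 peak nearest to slp1 ranked 1970, with a signal of 89.6. Signal at the locus was therefore held mostly by the single upstream peak.

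**Figure D1:**
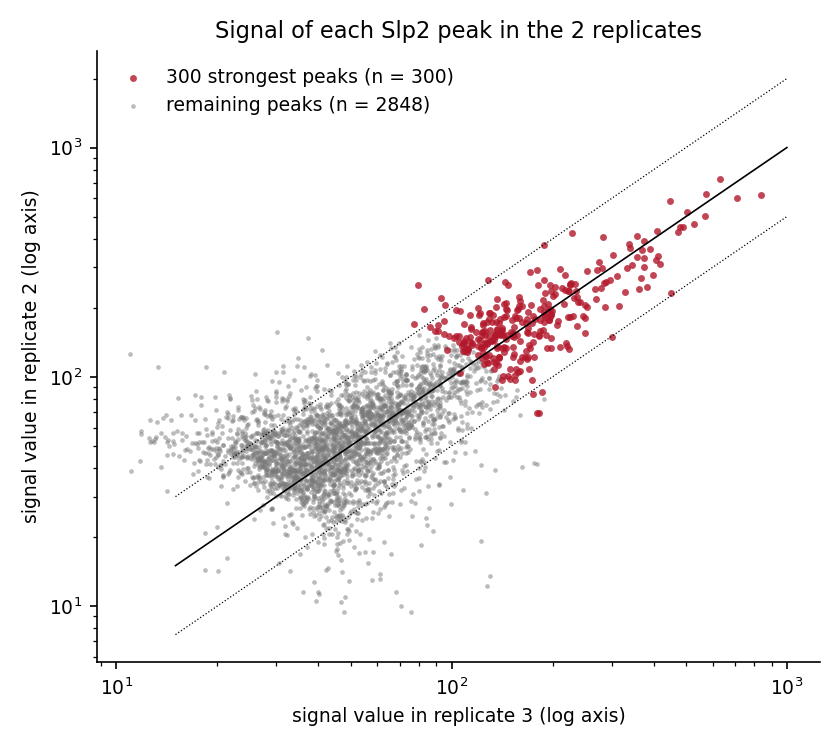
Signal value of each peak in replicate 3 (horizontal, log axis) and replicate 2 (vertical, log axis) for the 300 strongest peaks (red) and the remaining peaks with a summit in both replicates within 200 bp (grey). The solid line marks equal signal and the dotted lines a 2-fold difference, outside which 11 of the 300 lie.

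Both replicates carried the strong peaks. Each of the 300 had a peak summit within 200 bp in both replicates, at a median distance of 9 bp in replicate 2 and 10 bp in replicate 3, against 19 bp and 18 bp for the remaining peaks. Ranked by replicate alone, 259 of the 300 stood among the first 300 of replicate 2, 258 among those of replicate 3, 219 among both and 2 among neither. The signal of replicate 2 was the higher for 167 of the 300. A difference above 2-fold was seen at 11 of the 300 peaks (3.67%) and at 422 of 2848 remaining peaks with both values (14.8%), and the SD of the log2 ratio of replicate 2 to replicate 3 was 0.44 in the 300 and 0.70 in the remaining peaks. Over the 300 peaks the replicate signals had a Spearman rho of 0.594 and a Pearson r of 0.723 on the log2 scale, given as a description because the choice of strong peaks narrows the range. The pooled signal that chose the 300 is nearly the sum of the replicates (median ratio 0.999), so these values follow in part from the choice.

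The widest disagreement was in an intron of Lrch, with 252.52 in replicate 2 and 79.2 in replicate 3, a 3.19-fold difference. REPTOR, a transcription factor of the TOR pathway, had 198.325 in replicate 2 and 82.7 in replicate 3. Adk3 had 219.79 in replicate 2 and 92.7 in replicate 3, and CG31886 and Gapdh2 likewise had over 2-fold more in replicate 2. In the other direction, Drat had 69.5 in replicate 2 and 182.678 in replicate 3, a 2.63-fold difference. TppII, which encodes a large peptidase, had 69.4 in replicate 2 and 179.126 in replicate 3. CG14762, Slob and sp3 also had over 2-fold more in replicate 3. At Drat and CG31886 another of the 300 summits lay 206 bp away from the one that disagreed.

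Strong peaks were more often at promoters. A summit lay within 500 bp of the transcription start site of a protein-coding gene at 181 of the 300 peaks (60.3%, 95% Wilson interval 54.7% to 65.7%), against 1450 of the 2903 remaining peaks (49.9%). The difference was 10.4 points (95% Newcombe interval 4.47 to 16.1). Introns held 75 of the 300 (25%) and 969 of the remaining peaks (33.4%), a difference of -8.38 points (-13.3 to -2.92). Intergenic summits numbered 30 in the 300 (10%) and 394 in the remaining peaks (13.6%), with an interval of -6.75 to 0.52 points that spans 0. Exons of noncoding genes or noncoding transcripts held 11 of the 300 (3.67%) and 45 of the remaining peaks (1.55%), a difference of 0.43 to 4.92 points. Untranslated and coding exons held 3 of the 300 together. These intervals cover counting error over peaks of 1 list, not variation between embryos, and no p-value is given because peaks are not replicates.

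**Figure D2:**
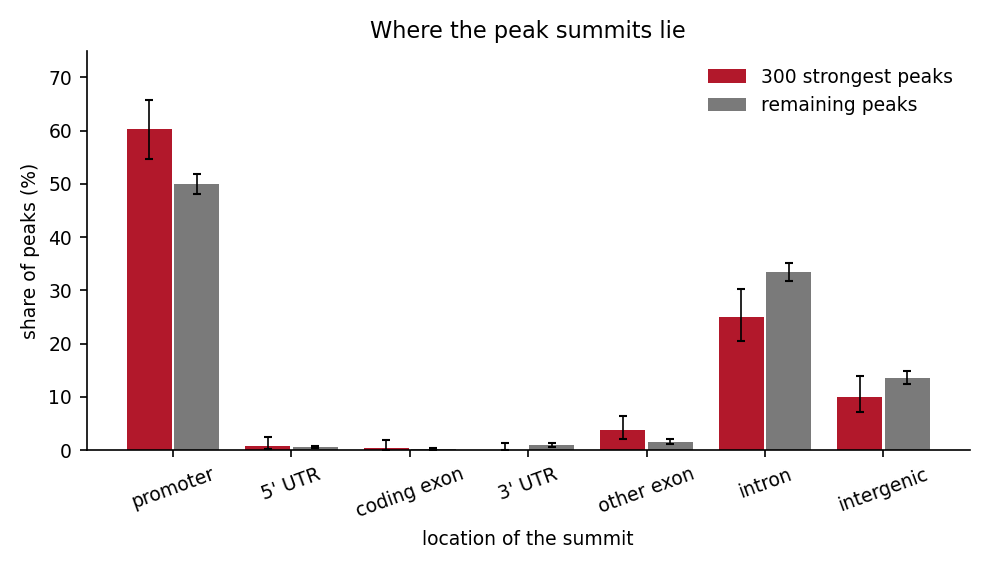
Share of peak summits in each location class (percent) for the 300 strongest peaks (red, left of each pair) and the 2903 remaining peaks (grey). Bars show the share and lines its 95% Wilson interval. Promoters hold 60.3% of the strongest peaks and 49.9% of the remaining ones.

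The median distance to the nearest start was 272.5 bp in the 300 peaks (order-statistic interval 229 to 350) and 503 bp in the remaining ones. Away from promoters it was 2271 bp in the 300 and 3054 bp in the remaining peaks (intervals 1533 to 3213 and 2709 to 3368). Summits over 10 kb from any start made up 5.33% of the 300 and 8.89% of the remaining peaks. Divergent promoters, where starts on opposite strands point away from each other within the window, held 59 of the 300 (19.7%) and 547 of the remaining peaks (18.8%), and the interval of the difference, -3.53 to 5.89 points, spans 0. Ranked by replicate 3 alone, the divergent share was 25.3% in the 300 highest rows against 18.3% in the others, a difference of 7.08 points (2.27 to 12.5), and ranked by replicate 2 alone the difference was -1.75 points. With a promoter window of 250 bp the share was 16.3% in the 300 against 11.4% in the remaining peaks, a difference of 4.90 points (0.95 to 9.63).

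Within promoters the strong summits sat further upstream. The median position relative to the nearest start was -144 bp at the 181 promoter peaks among the 300 (interval -169 to -122) and -86 bp at the 1450 others (-92 to -79). Over 100 bp upstream lay 118 of the 181 (65.2%) and 648 of the 1450 (44.7%), a difference of 20.5 points (12.9 to 27.5). Fewer of all 300 summits than of the remaining ones fell within 100 bp of a start on either side (18.7% of the 300 and 23.8% of the remaining), although more of them were at promoters. The difference in upstream share was 12.3 points (4.66 to 19.7) when the peaks were ranked by replicate 3 alone and 21.2 points when ranked by replicate 2 alone. At divergent promoters the sign of the position depends on which start is nearer.

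**Figure D3:**
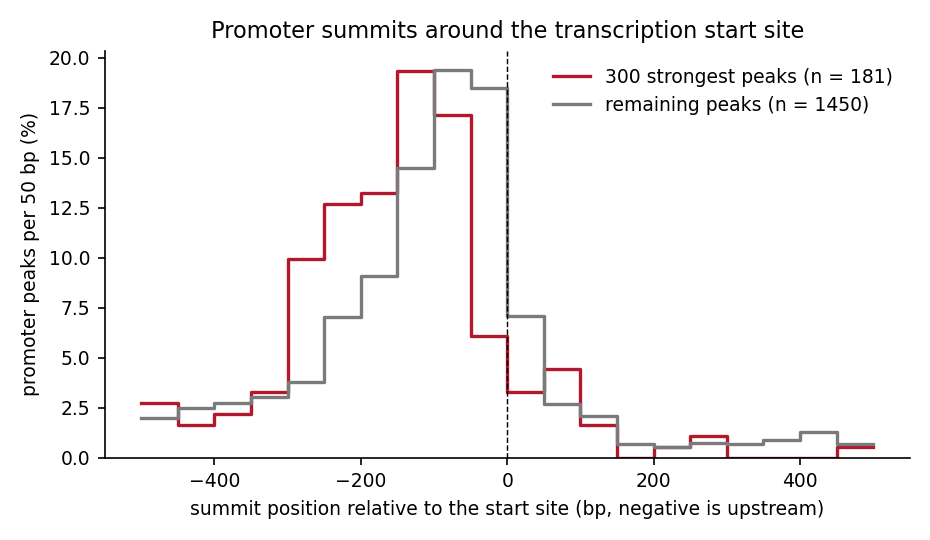
Position of promoter summits relative to the nearest start site (bp, negative is upstream), as the percentage of promoter peaks per 50 bp, for the 181 promoter peaks among the 300 strongest (red) and the 1450 among the remaining peaks (grey). The red line lies to the left of the grey one, with medians of -144 and -86 bp.

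The strong peaks were also drawn narrower by the caller. Their median width was 254 bp against 404 bp in the remaining peaks, which is the most frequent width in the list, and 278 of the 300 (92.7%) were narrower than it, against 234 of the remaining peaks (8.06%). Only 17 of the 300 were exactly 404 bp wide and 5 were wider. Width comes from the same calling as the signal and is a description.

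In consecutive blocks of 300 rows the promoter share went from 60.3% in the first block to 54.3% in the second and 51.7% in the third, and stayed between 47% and 53% in the blocks after that. The share of promoter summits over 100 bp upstream was 65.2% in the first block, 53.4% in the second and 37.5% in the last, with blocks in between from 31.8% to 53.5%. Narrow peaks made up 92.7%, 53.7% and 13.7% of the first 3 blocks. Promoter share and the share of narrow peaks thus fell from block 1 to block 2 and again from block 2 to block 3.

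**Figure D4:**
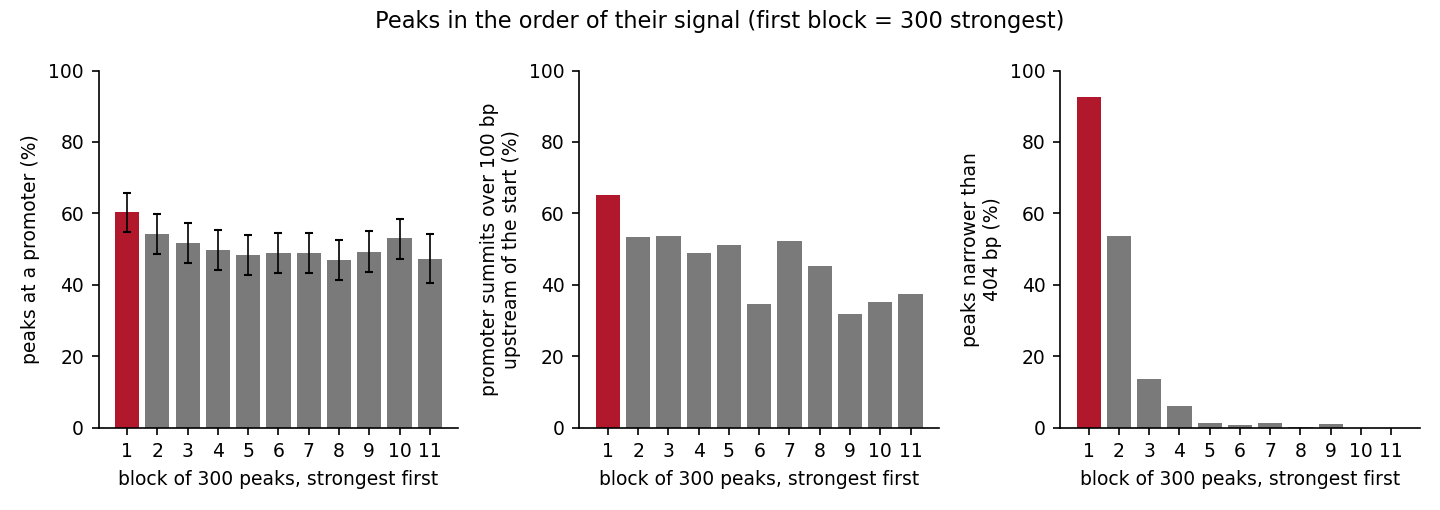
Share of peaks at a promoter, share of promoter summits over 100 bp upstream of the start, and share of peaks narrower than 404 bp (all percent), in blocks of 300 peaks ordered by signal. The first block (red) is the 300 strongest, the last block holds 203 peaks, and lines in the left panel are 95% Wilson intervals. All 3 shares are highest in the first block.

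The sequence under the strong summits changed with distance. Within 50 bp of the summit the mean GC content was 33.2% in the 300 peaks and 36.5% in the remaining ones (SD over peaks 7.3 and 8.78). From 100 to 150 bp away it was 44.3% in the 300 and 40.3% in the remaining peaks (SD 8.25 and 8.26), and from 250 bp outward the means were within 1 point of each other. The AT-rich centre and GC-richer shoulders were present at promoter peaks, with 33.1% at the centre and 43.9% at 100 to 150 bp, against 38.1% and 38.7% in the remaining promoter peaks. They were present away from promoters too, with 33.4% and 44.9%, against 35.0% and 41.8% in the remaining peaks. The median over the whole 200 bp window was 35.5% in the 300 against 36.5% in the remaining peaks, which averages over this profile. How the caller places summits in AT-rich sequence was not tested.

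The forkhead consensus was in the 200 bp window of 53 of the 300 peaks (17.7%) and of 437 of the remaining peaks (15.1%). The difference of 2.61 points has an interval of -1.51 to 7.49 that spans 0. Windows of the same length centred 600 bp to each side held it in 11.7% around the 300 and in 9.52% around the remaining peaks. By comparison, 11.2% of 19253 windows at annotated coding starts (150 bp before to 50 bp after) and 8.80% of windows laid every 5000 bp along the arms held it. Both sets of summits therefore exceeded their flanks, and 247 of the 300 strongest held no match in the window. The TATA box letters TATAAA were in 30% of the 300 summit windows and 18.7% of their flanks. In the remaining peaks they were in 30.5% and 19.7%, so an excess over flanks is not particular to the forkhead letters. The initiator letters TCAGTT were lower at summits than in flanks in both sets. How far base composition accounts for the excess was not tested. The shorter core TGTTT, contained in 1 form of the consensus, was in 64.7% of the 300 and 69.1% of the remaining summit windows, lower in the 300, with an interval of -10.2 to 1.03 points that spans 0. That interval lay below 0 for the 150 strongest, at -9.11 points (-17.3 to -1.43), and for the 600 strongest, at -5.15 points (-9.43 to -1.02). The core was in 63.0% of windows at all starts and 56.1% along the arms. A single match of the consensus was in 47 peaks, 2 matches in 5 and 3 matches in 1. Of the 50 strongest peaks, 8 had a match, among them those at Ugalt, Lk6 and Art3 printed above.

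Word A, CACAGTGG, was in 25 of the 300 summit windows (8.33%) and 129 of the remaining ones (4.44%), a difference of 3.89 points. It was picked for its difference in these same peaks among 32758 words, so its values are a description, with no interval. The next block of 300 rows held it in 6%, and the block after that in 7%. Flanking windows held it in 1.67% around the 300 and 0.98% around the remaining peaks, windows at all starts in 0.97% and windows along the arms in 0.71%. Its matches lay beside the summits of the strong peaks and not on them. From 50 to 100 bp away there were 29 matches in the 300 peaks, or 9.67 per 100 peaks, against 2.41 per 100 remaining peaks. Within 50 bp there were 4, or 1.33 per 100, against 2.45 per 100 remaining peaks. In 400 bp windows 42 of the 300 (14%) and 6.82% of the remaining peaks held it, a difference of 7.18 points. At promoters that difference was 9.40 points, and away from promoters 4.48 points. Its holders included larp, an RNA-binding protein gene, the reticulon gene Rtnl1, the EGF receptor ligand gene spi, the nuclear receptor gene Hr3 and the chromatin remodeller gene Ino80.

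Word B, AACCCCCT, was in 11 of the 300 windows (3.67%) and 20 of the 2903 remaining ones (0.689%), a difference of 2.98 points. In the blocks of 300 rows after the first it was in 0.333% to 1.33%. Flanks held it in 0.50% around the 300 and 0.31% around the remaining peaks, and windows at all starts in 0.255%. Its 12 matches within 100 bp in the 300 peaks were split into 5 within 50 bp and 7 from 50 to 100 bp. The 11 holders were CHMP2B, CG9663, Shc, CG13501, Adck1, CG4496, Trp1, CG31612, upSET, elav and Fbl6. CHMP2B encodes a subunit of the membrane-remodelling ESCRT-III complex, and elav a neuronal RNA-binding protein. Word B was not among the 10 words with the greatest difference and was chosen after its values were seen, as second by ratio among words held by at least 10 of the 300, out of the same 32758 words, so it too is a description. The first by ratio was GACATTTA, in 10 of the 300 windows (3.33%) and 17 of the remaining ones (0.586%).

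In 3 of those 11 windows, at CHMP2B, CG9663 and Adck1, the letters CTACGCC followed word B on the same strand with 13, 2 and 13 bases between. The summit at ver, rank 1094, was the 1 such case among the remaining peaks. CTACGCC alone was in 15 of the 300 windows (5%) and 44 of the remaining ones (1.52%), a difference of 3.48 points, and in 1.67% of flanks around the 300 and 1.45% around the remaining peaks. It was noticed in the printed sequences, and is also within the 1 shown for CG14100.

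The other words with the greatest difference were AATTTAAT, AAATAATT, AGAAAAAT, TTCAAAAA, AAAGAAAA, TAAATTAA, AAGAAAAA, AATTTTAA and AATAATTA. All 9 consist of A and T with at most 1 G or C, and their shares in the 300 ran between 7.33% and 11.7%, beside the AT-rich centre of these summits.

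**Figure D5:**
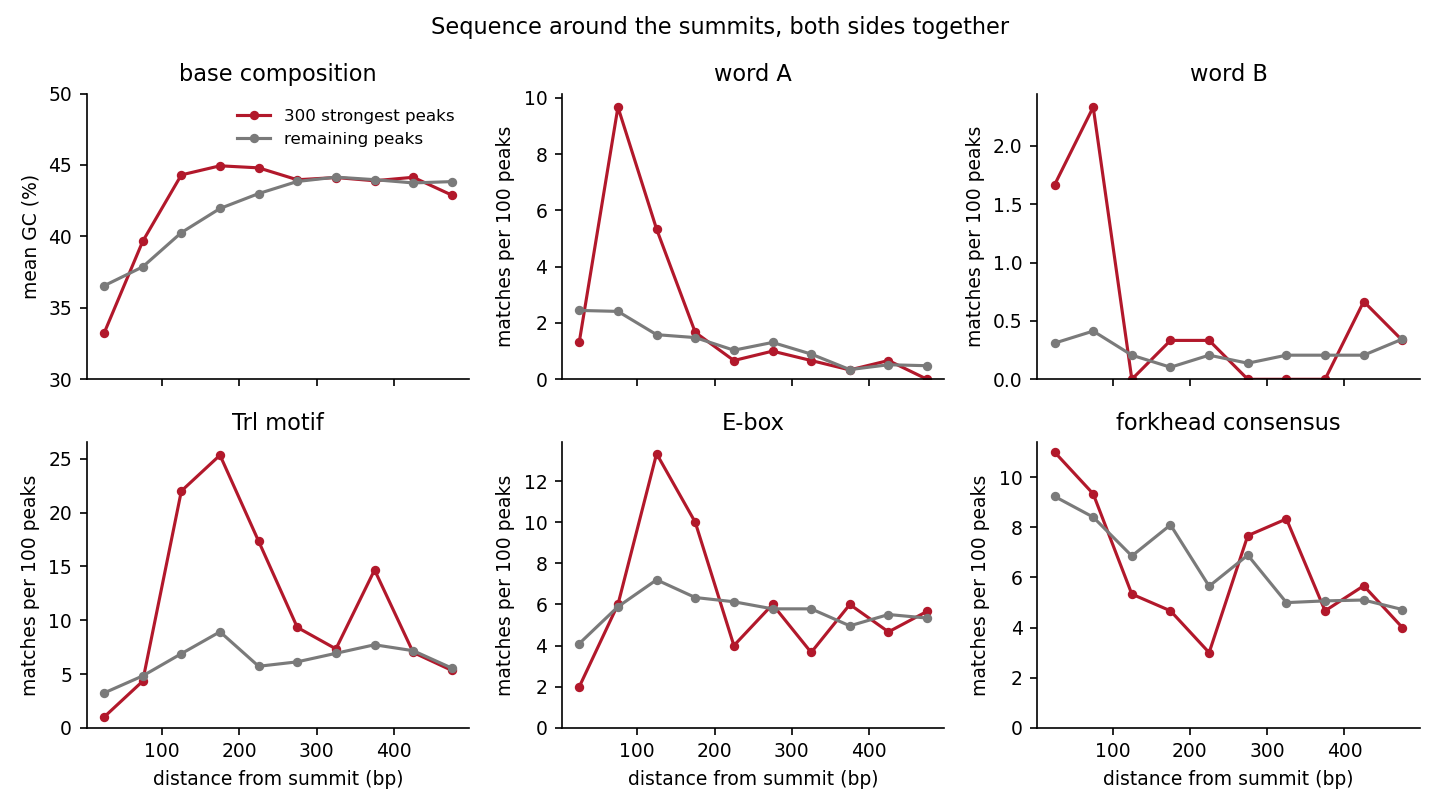
Mean GC content (percent) and number of sequence matches per 100 peaks by distance from the summit in 50 bp steps, both sides together, for the 300 strongest peaks (red) and the remaining peaks (grey). Word A is CACAGTGG and word B is AACCCCCT. GC is lowest at the centre of the strongest peaks, word A peaks at 50 to 100 bp and the Trl motif at 150 to 200 bp.

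The Trl motif GAGAGAG was 1 of the sequences that flanked strong summits. In the 200 bp window it was in 4.67% of the 300 and 3.79% of the remaining peaks, with an interval of -1.14 to 3.96 points that spans 0. In 400 bp windows it was in 68 of the 300 (22.7%) and in 10.7% of the remaining peaks, a difference of 11.95 points (7.42 to 17.1). Matches, which overlap in longer repeats and were each counted, reached 25.3 per 100 peaks at 150 to 200 bp from the summit, against 8.92 per 100 remaining peaks. At promoters the 400 bp share was 24.3% in the 300 against 10.1% in the remaining peaks, and away from promoters 20.2% against 11.4% in the same order. The E-box CAGCTG had a like profile, with 13.3 matches per 100 of the strongest peaks at 100 to 150 bp against 7.20 per 100 remaining peaks, and a 400 bp share of 27.7% in the 300 against 19.9% in the remaining peaks (2.74 to 13.2 points). At promoters its difference was 10.9 points, and away from promoters 0.19 points (-5.48 to 7.91).

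Several motifs typical of housekeeping promoters went the other way at promoter peaks, while the interval of a further core promoter element spans 0. The DREF site TATCGATA was in the summit window of 6 of the 181 strong promoter peaks (3.31%) and in 8.14% of the 1450 others, a difference of -4.82 points (-7.17 to -0.88). The 6 were at Shc, Alg3, GCS2beta, CG11151, RpL41 and RpS10b, all promoter peaks. Over all peaks, the DREF share was 2.00% in the 300 against 4.24% in the remaining peaks, with an interval of -3.58 to 0.15 points. It was in 6.79% of windows at all starts and 0.561% of windows along the arms. By distance, over all peaks, DREF matches within 50 bp of the summit numbered 1 per 100 of the 300 and 2.58 per 100 remaining peaks. From 150 to 200 bp the 300 had more, with 2 per 100 against 1.41 per 100 remaining peaks. CGATA, the core bound by BEAF-32, which the DREF site contains, was in 28.7% of the strong promoter peaks and 39.2% of the others (-17.1 to -3.10 points), 37.0% of windows at starts and 21.3% along the arms. The M1BP site GGTCACAC was in 0.55% of the strong promoter peaks and 4.83% of the others (-5.58 to -1.58 points), and in 5.97% of windows at starts and 0.367% along the arms. Only RpL7 held it among the strong promoter peaks, and slp2 and Csk held it away from promoters. The core promoter element with the letters CATCNCT or CAGCNCT was in 19.3% of the strong promoter peaks and 29.9% of the others (-16.2 to -3.82 points), in 21.3% of windows at starts and 13.9% along the arms. The further element, GTATATTT or GTATTTTT, was in 9.39% of the strong promoter peaks and 9.72% of the others (-4.14 to 4.99 points).

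Since strong summits sat further upstream, the promoters were also searched in windows fixed on the start site, a measure added after these values were seen. There the DREF site was at 5.52% of the 181 starts nearest to strong peaks and at 10.3% of the 1450 others (-7.83 to -0.23 points). CGATA was at 30.9% of the strong-peak starts and 43.2% of the others, the M1BP site at 2.21% of the strong-peak starts and 8.14% of the others, and the CATCNCT or CAGCNCT element at 25.4% of the strong-peak starts and 34.8% of the others. The intervals of these 3 differences lie below 0. The element GTATATTT or GTATTTTT was at 6.08% of the strong-peak starts and 8.69% of the others, with an interval of -5.69 to 2.06 points that spans 0. GAGAGAG was at 17.7% of the strong-peak starts and 8.07% of the others, a difference of 9.61 points (4.51 to 16.0). The forkhead core TGTTT was at 55.2% of the strong-peak starts and 67.9% of the others (-20.3 to -5.14 points). The forkhead consensus was at 9.94% of the strong-peak starts and 14.1% of the others, with an interval of -8.22 to 1.30 points that spans 0. The GATA factor letters GATAAG were at 6.08% of the strong-peak starts and 12.1% of the others (-9.18 to -1.25 points), and are in 13.6% of windows at all starts and 8.39% along the arms. In the summit windows of promoter peaks the intervals of GATAAG and TGTTT span 0. The differences there were -2.40 points (-6.27 to 2.96) for GATAAG and -3.77 points (-11.3 to 3.18) for TGTTT. The TATA box TATAAA was at 25.4% of the strong-peak starts and of the others. The initiator letters TCAGTT were at 19.9% of the strong-peak starts and 16.8% of the others (-2.41 to 9.80 points). These motifs are in windows at all starts in 29.5% for TATAAA, 21.6% for TCAGTT and 5.77% for GAGAGAG.

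In all, the 300 peaks had 281 different nearest genes, and 16 genes were nearest to more than 1 of them. Raf, the kinase below Ras in receptor tyrosine kinase signalling, had 4, at ranks 53, 168, 175 and 281, spread over 7781 bp on the X chromosome, the last of them 8596 bp past a start of the gene. Their signals were 480.751, 305.698, 301.446 and 245.922. Hr4, a nuclear receptor gene of the ecdysone response, had 3, at ranks 155, 171 and 194. Each of Act5C, CG31886, CG4004, CG46460, Drat, NFAT, Ptpmeg2, Rtnl1, cbt, dnc, pico, sbb, slbo and tara had 2. The 2 nearest to slbo, which encodes a C/EBP factor of border cell migration, had signals of 378.781 and 347.024.

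Another peak of the list lay within 5 kb of 170 of the 300 summits (56.7%) and of 1324 of the remaining summits (45.6%), a difference of 11.1 points (5.12 to 16.8). Within 5 kb of another of the 300 lay 34 summits (11.3%), in 15 pairs and the group of 4 at Raf. Of the remaining summits, 231 (7.96%) lay within 5 kb of 1 of the 300, a difference of 3.38 points (0.10 to 7.57). Summits that lie near each other each count the other and are not independent, so both of these intervals are too narrow. Among the 300 rows ranked highest by replicate 3 alone, 18.7% lay within 5 kb of another of those rows, and by replicate 2 alone 13%. The pairs joined aay with Shc, Alg3 with Sesn, jp with brwl and CG3792 with CG8892, and otherwise had 1 nearest gene each.

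Most nearest genes fell outside 24 lists of fly genes grouped by pathway or function. One of the lists contained the nearest gene of 34 of the 300 peaks (11.3%) and 321 of the remaining peaks (11.1%), a difference of 0.28 points (-3.05 to 4.51). Cytosolic ribosomal protein genes had 7 of the 300 (2.33%) against 55 of the remaining peaks (1.89%), a difference of 0.44 points (-0.89 to 2.88). The 7 were at RpS27, RpL7, RpL23A, RpL14, RpL34b, RpL41 and RpS10b. RpS27 was the strongest, at 204.332 in replicate 2 and 316.575 in replicate 3. All 7 were promoter peaks, with summits between -92 bp (RpL23A) and 26 bp (RpL7) of the start, each nearer to it than the median of the strong promoter peaks. Mitochondrial ribosomal proteins had mRpL41 and mRpL23 (0.67%) against 11 of the remaining peaks (0.38%), and initiation factors had eIF6 (0.33%) against 8 (0.28%).

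Epidermal growth factor receptor and Ras genes had 7 of the 300 (2.33%) against 30 of the remaining peaks (1.03%). They were the 4 at Raf, 1 at spi, 1 at aos, which encodes the secreted inhibitor Argos, and 1 at S (Star), needed for processing of the ligand. The difference of 1.30 points (0.02 to 3.72) rests on the 4 peaks of 1 gene. Its interval spans 0 among the 150 strongest, in the ranking by replicate 2 alone, and where genes were assigned by a start within 500 bp or a gene body within 5 kb.

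Ecdysone and nuclear receptor genes had 5 of the 300 (1.67%) against 22 of the remaining peaks (0.76%), with an interval of -0.12 to 3.10 points. They were 3 at Hr4, 1 in an intron of Hr3 and 1 at the start of Eip75B. Signal at Hr3 was 183.749 in replicate 2 and 174.327 in replicate 3, and at Eip75B 160.796 in replicate 2 and 114.352 in replicate 3. Heat shock genes had Hsp27 and Hsp83 (0.67%) against 4 of the remaining peaks (0.14%). Single peaks stood at gro, the co-repressor Groucho, at Mad, the transcription factor of Dpp signalling, and at lgs, a Wnt pathway cofactor and the only 1 of the 300 on chromosome 4. Others were at kirre, a gene of myoblast fusion, at CycB, at lola and Chro among promoter factors, at ph-p among Polycomb genes and at CHES-1-like and slp2 among forkhead genes. The lists of the genes from gro to slp2 each had 1 or 2 of the 300 (0.33% or 0.67%). They had between 6 and 23 of the remaining peaks each (0.21% to 0.79%). Genes were assigned here by the nearest start, so the rank 2 peak in an intron of ush counts for cbt, and the rank 50 peak in an intron of Trl, the gene of a promoter factor, counts for CG42507. By that assignment some lists had none of the 300. They were the gap and maternal, Hox, GATA and ush, JAK/STAT, Hippo, proteasome, aminoacyl-tRNA synthetase, cuticle and chemoreceptor lists. Those lists had between 3 and 12 of the remaining peaks each (0.10% to 0.41%), shares at which few or no peaks of 300 would be counted. In the 300, the interval of every list other than the receptor and Ras list spans 0. Among the 600 strongest peaks the cytosolic ribosomal protein list had 3.83% against 1.50% of the rows below them, a difference of 2.34 points (0.96 to 4.23).

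Starts of noncoding genes also lay near some of the 300 summits. They were not counted for the remaining peaks, so these counts are a description with no comparison. A start of an annotated ncRNA was within 500 bp of 19 of the 300 summits, that of a tRNA gene (tRNA:Tyr-GTA-1-8) of 1 and that of a snoRNA in the Uhg4 host of 1. For 12 peaks the noncoding start lay away from any coding promoter. The strongest of these were at lncRNA:CR44619 near CG4004, with a signal of 725.529, and at lncRNA:CR31840, with 557.48.

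The chromosome arms held 64 of the 300 on 2L, 61 on 2R, 55 on 3L, 63 on 3R, 1 on 4 and 56 on X. Per megabase this was 2.72, 2.41, 1.96, 1.96, 0.742 and 2.38 in that order, against 21.9, 20.8, 21.7, 21.6, 9.64 and 23.2 for the remaining peaks. The interval of the difference in share spans 0 on every arm.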

How the data were processed

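Whole-embryo ChIP-seq peak lists of 2 libraries were used, with coordinates on dm6. Sonication gave fragments of 200 to 800 bp, per the labels. Per the submitters' notes, relaxed lists were made for each replicate and for both replicates together with a further data set, and the reproducible list was obtained from them by IDR, a method that keeps peaks ranked alike in replicates. Depth, aligner, caller and IDR threshold are not given in the sources used here. The deposited signal value is a score with no stated scale, and the deposited -log10 q-value has a ceiling that all of the 300 strongest peaks share.

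From these files the 300 highest signal values (ties by chromosome and start) were compared with the remaining rows. Starts and location classes came from the Ensembl release 115 annotation, and sequence from RefSeq's Release 6 assembly, both of the coordinates of dm6. A summit within 500 bp of a coding start was a promoter summit, and the others were classed by the feature they lay in, with exons before introns and intergenic sequence last. Sequences were printed for the strongest holders of a match outside 1 arm (2R). A replicate's peak was matched by the nearest summit within 200 bp. Motifs were searched by exact letters on both strands in 200 bp around the summit. TGTTT is contained in 1 form of the forkhead consensus and CGATA in the DREF site. Shares have 95% Wilson intervals, differences 95% Newcombe intervals and medians order-statistic intervals, which cover counting error over peaks only. No test was run, because there is 1 group and the peaks were chosen by signal. The steps were tested on simulated data in Python 3.11.15 with numpy 2.4.6, pandas 2.3.3, scipy 1.17.1 and matplotlib 3.10.9.

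Genes named are those nearest to the 10 strongest peaks of each main class, those nearest to at least 2 of the 300, those at the threshold, up to 6 per list by signal, the 5 widest replicate ratios each way, and slp1 and slp2. The peaks and lists were chosen with earlier results of these data known. Summit position within promoters, peak width, words A and B, CTACGCC, the start-anchored windows and the distance profiles were added after values were seen, and the genes that hold words A and B were named after their values were seen. Of the list symbols, 5 matched no annotated gene. Alternatives were the 150 and 600 strongest, ranking by 1 replicate alone, other windows, distances and gene assignments, and the dm3 list.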

Additional observations from a re-analysis of the deposited data

How the results depend on the processing

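The promoter share, its direction and its interval held in every alternative tried, between 8.55 and 11.1 points by 1 replicate alone. Peak width and the upstream share of promoter summits also kept direction and side of 0. Words A and B were picked in these same peaks, which the alternatives largely reuse, so their stability says little. With the 150 strongest, 6.67% lay within 5 kb of another, median GC was 36.25% and word A's difference was 2.65 points. With the 600 strongest, 17.2% lay within 5 kb, and the DREF difference was -1.88 points, with an interval below 0. Ranking without 1 replicate gave divergent promoter differences of -1.75 to 7.08 points, median promoter positions of -146.5 to -120 bp and 13% to 18.7% of peaks within 5 kb of another. It gave shares among the strongest of replicate 2 of 74% to 99.3%, of replicate 3 of 73.3% to 100%, and median GC of 35.5% to 36.5%. The upper ends of both shares come from ranking by that same replicate, so they follow from the choice of rows. The 300 peaks chosen without replicate 2 shared 254 with the main set, and those without replicate 3 shared 259. A 250 bp promoter window gave a divergent difference of 4.90 points, with an interval above 0, and a median position of -116.5 bp. In 100 bp windows word A reversed to -1.24 points and median GC was 32%. In 400 bp windows the CAGCTG difference reversed to 7.72 points and median GC was 40.4%. These shifts follow from the distance profiles. Among promoter peaks alone the DREF difference was -4.82 points. Away from promoters the M1BP site reversed to 1.47 points, on 2 of the 300 peaks, and word A's was 3.74 points. Within 2 kb of another lay 6% and within 20 kb 19.3%. Depth is unknown, so no limit from read counts can be given. No paired analysis was possible because there is 1 group, with no second condition to pair the replicates with.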
